A study of Arabidopsis thaliana with 6 samples.

Results

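LHY (AT1G01060) and PRR7 (AT5G02810) are 2 genes of the Arabidopsis circadian clock. They were taken by gene identifier from a table of 1537 genes and compared library by library between BIC1-YFP seedlings and wild-type (WT) seedlings. Both groups were whole Arabidopsis thaliana seedlings of the Columbia ecotype (Col-0), 10 days old, grown on half-strength MS plates in long days, with 3 libraries labelled as biological replicates in each. BIC1-YFP seedlings carry the BIC1 protein joined to a yellow fluorescent protein, and WT seedlings do not. BIC1 is a small protein known to inhibit the blue-light receptors called cryptochromes. The sources used here do not give the promoter that drives BIC1-YFP, the number of independent lines or the hour of collection.

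In the Arabidopsis clock, LHY is a MYB-type transcription factor whose transcript peaks around dawn. Together with its close relative CCA1 it represses genes of the evening by binding a short promoter sequence, the evening element. PRR7 is a pseudo-response regulator, expressed later in the day, that represses LHY and CCA1. The clock is set by light through phytochromes and cryptochromes, and its outputs include hypocotyl growth, flowering time and metabolism. Levels of clock transcripts change through the day, so each value below is a level at an unstated hour of collection. Whether all libraries were collected at the same hour is not stated either, and a difference in hour cannot be told apart from a difference in level.

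RefSeq annotation of the TAIR10.1 build places LHY on the minus strand at chr1:33365-37871, with 8 annotated transcripts of 7 to 10 exons. It places PRR7 on the minus strand at chr5:637681-642030, with 2 annotated transcripts of 8 to 9 exons. The 300 bases just before each gene start are shown because both hold the same light-linked and clock-linked motif, the G-box, which letters CACGTG spell on either strand and which is printed in capitals. The LHY window is chr1:37872-38171 and the PRR7 window is chr5:642031-642330, both read on the minus strand, 5′ to 3′.
LHY: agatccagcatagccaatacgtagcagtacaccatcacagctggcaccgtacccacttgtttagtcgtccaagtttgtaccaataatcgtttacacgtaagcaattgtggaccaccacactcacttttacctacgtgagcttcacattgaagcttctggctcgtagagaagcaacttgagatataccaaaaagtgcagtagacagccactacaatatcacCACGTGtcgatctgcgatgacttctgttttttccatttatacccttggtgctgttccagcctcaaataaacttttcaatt
PRR7: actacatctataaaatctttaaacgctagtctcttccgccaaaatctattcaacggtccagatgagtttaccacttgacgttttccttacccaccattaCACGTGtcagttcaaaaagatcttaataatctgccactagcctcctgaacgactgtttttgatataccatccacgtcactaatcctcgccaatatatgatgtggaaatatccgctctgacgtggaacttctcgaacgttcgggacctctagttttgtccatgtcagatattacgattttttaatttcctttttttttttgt
The G-box began 80 bases before the LHY start and 201 bases before the PRR7 start. A G-box was present in the 300-base windows of 11.2% of the listed genes and of 7.09% of all protein-coding genes. Neither window held the evening element (AAAATATCT, either strand) or the CCA1-binding site (AAAAATCT, either strand). A wider window of 1000 bases added a CCA1-binding site 429 bases before the LHY start and no match for PRR7. A match is a description of the letters and was not tested for binding.

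The table analysed holds only genes that the authors had selected as different between the genotypes, with a largest deposited adjusted p of 0.0499. Values are normalized units of read abundance, written without the sequencing depth behind them, which is unknown. BIC1 (AT3G52740) ranged from 14597 to 21868 units in BIC1-YFP and from 260 to 409 units in WT, in the direction of the labels. The first principal component separated the genotypes, but the authors' selection of these genes had largely built that separation in. On this component WT replicate 3 (-14.2) lay nearer to the BIC1-YFP libraries (17.8 to 29.2) than did WT replicates 1 (-29.6) and 2 (-28.2).

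LHY fell in BIC1-YFP seedlings. It stood at 63.1, 71.3 and 96.9 units in BIC1-YFP replicates 1, 2 and 3, against 229.7, 203 and 249 units in WT replicates 1, 2 and 3. Every BIC1-YFP library lay below every WT library, and the highest BIC1-YFP library was replicate 3. The means were 77.1 ± 17.6 units in BIC1-YFP and 227 ± 22.8 units in WT (SD, n = 3 each), a 2.95-fold lower level. The log2 fold change was -1.57 (SE 0.22, 95% interval -2.09 to -1.04, limma, adjusted p = 0.0044). In whole seedlings, fewer cells that express a gene and less of its RNA per cell cannot be told apart.

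PRR7 rose in BIC1-YFP seedlings. It stood at 110.1, 58.9 and 46.1 units in BIC1-YFP replicates 1, 2 and 3, against 21.1, 28.5 and 24.5 units in WT replicates 1, 2 and 3. The lowest BIC1-YFP library, replicate 3, lay above the highest WT library, replicate 2, so the genotypes did not overlap. The means were 71.7 ± 33.9 units in BIC1-YFP and 24.7 ± 3.70 units in WT (SD, n = 3 each), a 2.91-fold higher level. The log2 fold change was 1.41 (SE 0.36, 95% interval 0.57 to 2.26, limma, adjusted p = 0.018).

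**Figure D1:**
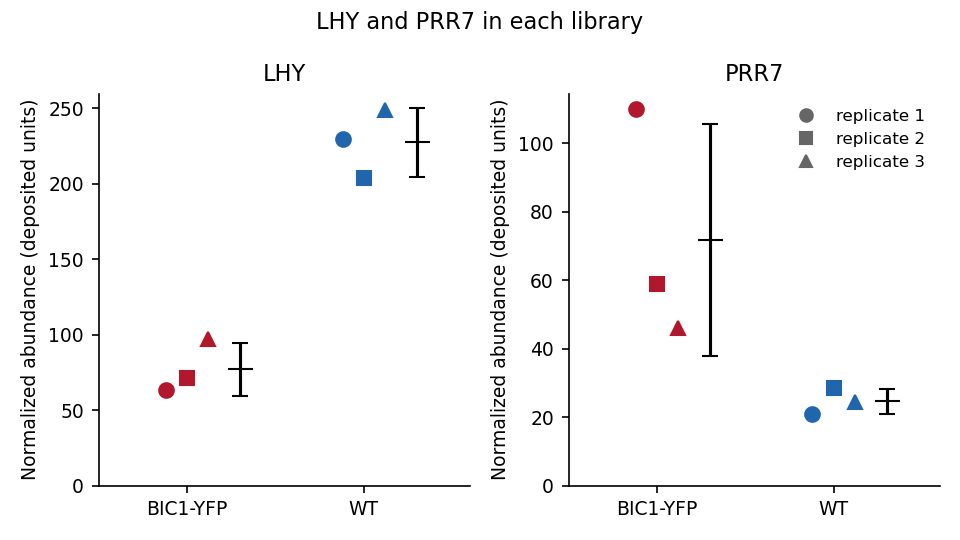
Normalized abundance (linear axis, deposited units) of LHY and PRR7 in each BIC1-YFP and WT library; symbols are libraries, and the bar beside them is the mean with its SD (n = 3). LHY lies between 63.1 and 96.9 units in BIC1-YFP and between 203 and 249 units in WT, and PRR7 between 46.1 and 110.1 units in BIC1-YFP and between 21.1 and 28.5 units in WT.

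The coefficient of variation of PRR7 was 47.2% in BIC1-YFP and 15.0% in WT, beside medians over all tested genes of 20.4% in BIC1-YFP and 22.6% in WT. That of LHY was 22.9% in BIC1-YFP and 10.0% in WT. BIC1-YFP replicate 1 carried the widest PRR7 value, and without it the PRR7 log2 fold change was 1.06 (limma, adjusted p = 0.034). Without each of the 6 libraries in turn, LHY had log2 fold changes of -1.74 to -1.44 (limma, adjusted p between 0.0063 and 0.023) and PRR7 of 1.06 to 1.68 (adjusted p between 0.021 and 0.048).

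These calls sit in a table chosen for difference and are not independent of that choice. Of the 1531 genes tested, 39.1% were called lower in BIC1-YFP, as LHY was, and 37.6% were called higher, as PRR7 was. For 76.0% of them the BIC1-YFP and WT libraries lay apart without overlap. By the size of the log2 fold change LHY ranked 110 among the 727 genes with a lower value, whose median size was 0.89. PRR7 ranked 176 among the 804 genes with a higher value, whose median size was 0.91. When limma's p-values were adjusted over 21574 tests, neither gene stayed called (adjusted p = 0.062 for LHY and 0.25 for PRR7). That number is the fewest tests that fit the deposited p-values and adjusted values of 645 of the listed genes. Those genes were taken by the size of the deposited fold change against the log2 ratio of the means. The number was then applied to all genes.

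In the authors' deposited table, LHY has a log2 fold change of -1.26 with an adjusted p of 3.15e-10. PRR7 has a log2 fold change of 0.92 with an adjusted p of 0.00178 in the authors' deposited table. Both deposited fold changes are smaller in size than the log2 ratios of the deposited genotype means, which are -1.56 for LHY and 1.54 for PRR7. So are those of LUX, BOA, RVE1, RVE7, CDF2, PIF4 and PIF5 (0.56 to 0.93 of the ratio). Those of GI, RVE8, CHE, COR27, CDF1, CDF3, FT, GRP7 and CAT2 are larger (1.41 to 1.45 of it). BOA has the smaller deposited p (8.08e-05, FT 8.44e-05) but the larger adjusted p (0.0035, FT 0.0027), in the authors' unstated test. The deposited rows thus do not share 1 adjustment. No source used here says how the authors computed these values.

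The 2 genes moved in opposite directions. Their ratio within a library does not depend on scaling between libraries. PRR7 over LHY was 1.75, 0.826 and 0.476 in BIC1-YFP replicates 1, 2 and 3, against 0.0918, 0.140 and 0.0984 in WT replicates 1, 2 and 3. The lowest BIC1-YFP ratio was above the highest WT ratio. The mean ratio was 1.02 ± 0.656 in BIC1-YFP and 0.110 ± 0.0262 in WT (SD, n = 3 each). On the log2 scale with 1 unit added to each gene, BIC1-YFP was higher by 2.98, beside SDs between libraries of 0.93 in BIC1-YFP and 0.32 in WT. No source used here says whether the units are corrected for gene length, so the ratio is compared between genotypes and is not read as the relative amounts of the 2 transcripts.

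Within BIC1-YFP the libraries were ordered inversely for the 2 genes. Replicate 1 was the lowest for LHY and the highest for PRR7, and replicate 3 was the highest for LHY and the lowest for PRR7. In WT, replicate 2 was the lowest for LHY and the highest for PRR7. Pearson's r between the genes over the 6 libraries was -0.95 on the log2(value + 1) scale, and -0.84 between their deviations from the genotype means. The points share library preparation and scaling, and n = 6 with 3 libraries a genotype, so the coefficients are descriptions.

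**Figure D2:**
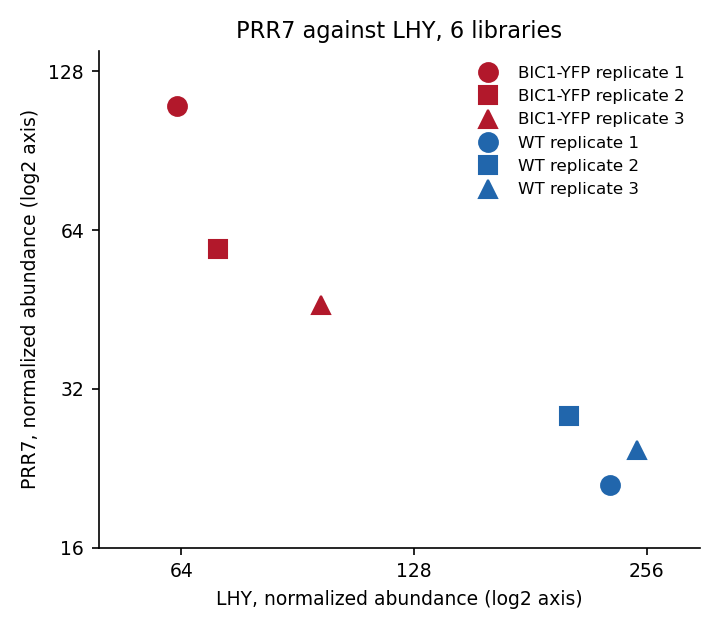
PRR7 against LHY in the 6 libraries, both in normalized units on log2 axes; colour marks the genotype and shape the replicate. The BIC1-YFP libraries lie at low LHY and high PRR7, from 63.1 and 110.1 units in replicate 1 to 96.9 and 46.1 units in replicate 3, and the WT libraries lie at high LHY and low PRR7.

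Other genes of the clock were described from a list of 48 genes by role, of which 18 were in the table and were tested. Of these, 11 rose and 3 fell in BIC1-YFP, and 4 did not pass, beside 76.6% of all tested genes called in either direction. The median log2 fold change of the 18 was 0.75, against 0.56 over all tested genes, and 14 of the 18 (77.8%) had a higher mean in BIC1-YFP, against 52.6% of the whole table. Without LHY and PRR7, 10 of 16 rose and 2 fell. Calls in the list numbered 8 (6 higher) without BIC1-YFP replicate 2, 10 (7 higher) without BIC1-YFP replicate 3 and 9 (7 higher) without WT replicate 1, and 1 over 21574 tests. LHY's partner CCA1 and the other pseudo-response regulators (PRR9, PRR5, PRR3 and TOC1) were not among the listed genes and are not analysed here. LHY and PRR7 were thus the only listed members of their 2 role groups.

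**Figure D3:**
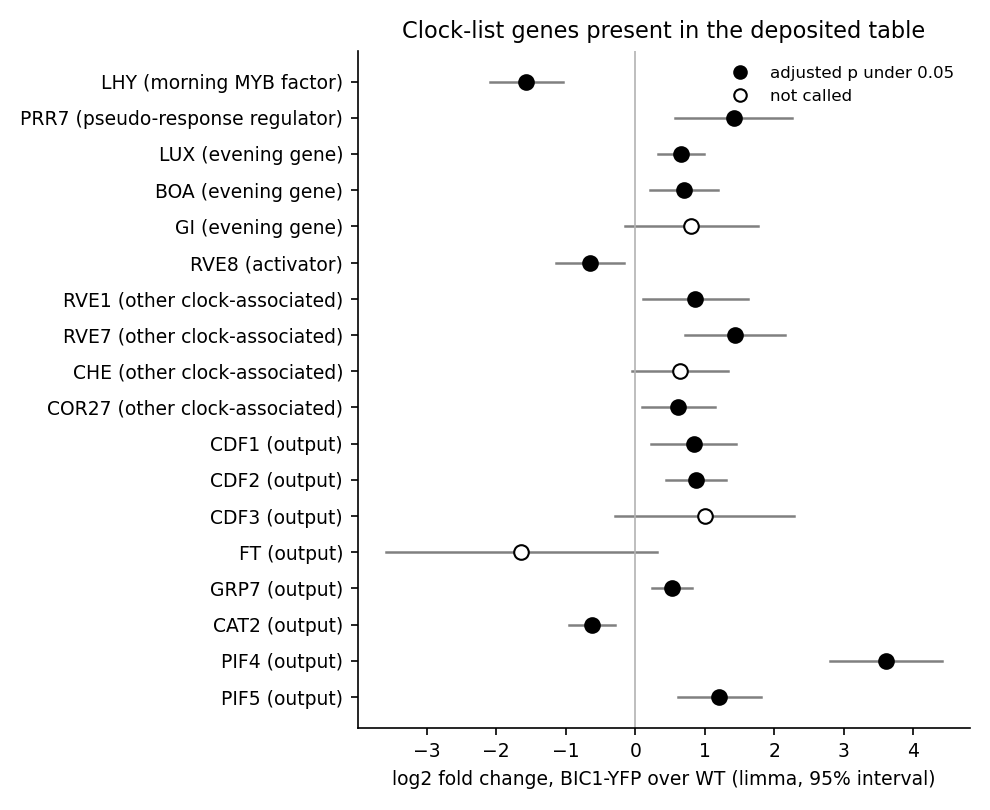
Log2 fold change of BIC1-YFP over WT with its 95% interval (limma) for the 18 genes of the clock lists that are in the deposited table, with roles in brackets; filled points have an adjusted p under 0.05. LHY at -1.57 and PRR7 at 1.41 lie on opposite sides of 0.

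Of 8 evening genes, 3 were in the table. LUX (AT3G46640), a DNA-binding part of the evening complex, stood at 1233, 1304 and 1311 units in BIC1-YFP replicates 1, 2 and 3, against 754, 781 and 904 units in WT replicates 1, 2 and 3. LUX rose with no overlap between genotypes (log2 fold change 0.66, SE 0.14, limma, adjusted p = 0.012). Its homolog BOA (AT5G59570) rose to 452 ± 86.2 units in BIC1-YFP, against 275 ± 34.5 units in WT (SD, n = 3 each; log2 fold change 0.70, limma, adjusted p = 0.024). BOA lost its call without BIC1-YFP replicate 2 or 3 or WT replicate 1 or 2 (limma, adjusted p from 0.061 to 0.077). GI (AT1G22770), which links the clock to flowering, stood at 176, 136 and 83.6 units in BIC1-YFP and at 106, 79.8 and 43.3 units in WT in replicates 1, 2 and 3. The GI libraries of the genotypes overlapped, and GI did not pass (log2 fold change 0.81, SE 0.41, limma, adjusted p = 0.096). In both genotypes GI was highest in replicate 1 and lowest in replicate 3.

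Of 9 clock activators, RVE8 alone was in the table. RVE8 (AT3G09600), a MYB factor of the LHY family that activates evening genes, fell to 201 ± 45.8 units in BIC1-YFP, against 312 ± 16.1 units in WT (SD, n = 3 each; log2 fold change -0.65, SE 0.21, limma, adjusted p = 0.028). It lost its call without replicate 1 or 2 of either genotype (limma, adjusted p from 0.060 to 0.088). Of the MYB genes related to LHY, RVE8 fell as LHY did, and 2 others rose. RVE7 (AT1G18330) stood at 278, 305 and 442 units in BIC1-YFP replicates 1, 2 and 3, against 108, 94.8 and 181 units in WT replicates 1, 2 and 3. It rose with no overlap (log2 fold change 1.44, SE 0.30, limma, adjusted p = 0.012). RVE1 (AT5G17300), known to link the clock to auxin, rose to 727 ± 249 units in BIC1-YFP, against 395 ± 116 units in WT, with overlapping libraries (SD, n = 3 each; log2 fold change 0.87, limma, adjusted p = 0.042). RVE1 lost its call without BIC1-YFP replicate 2 or 3 or WT replicate 1 or 2 (limma, adjusted p from 0.079 to 0.12) and in limma without a variance trend (adjusted p = 0.058).

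RVE1 and RVE7 belong to a group of 11 other clock-associated genes, of which 4 were in the table. COR27 (AT5G42900), a cold-regulated repressor of clock genes, rose to 400.5 ± 41.0 units in BIC1-YFP, against 264 ± 61.1 units in WT (SD, n = 3 each; log2 fold change 0.62, limma, adjusted p = 0.038). COR27 lost its call without any 1 of the BIC1-YFP libraries or WT replicate 1 (limma, adjusted p from 0.052 to 0.11). CHE (AT5G08330), a TCP factor that represses CCA1, averaged 1231 ± 320.3 units in BIC1-YFP and 801 ± 264 units in WT. CHE did not pass (log2 fold change 0.64, limma, adjusted p = 0.075), but did without WT replicate 3 (adjusted p = 0.032).

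Of 13 clock output genes, 8 were in the table, and 5 rose while 1 fell. Over all tested genes, 37.6% were called higher and 39.1% lower, 76.6% in either direction. The DOF factors CDF1 (AT5G62430), CDF2 (AT5G39660) and CDF3 (AT3G47500) repress flowering genes. CDF2 stood at 148, 162 and 137 units in BIC1-YFP replicates 1, 2 and 3, against 75.3, 83.3 and 83.7 units in WT replicates 1, 2 and 3. It rose with no overlap (log2 fold change 0.87, SE 0.18, limma, adjusted p = 0.012). CDF1 rose by 0.84 on the log2 scale (limma, adjusted p = 0.027), a call lost without BIC1-YFP replicate 2 or 3 or WT replicate 1 or 2 (adjusted p from 0.054 to 0.084). CDF3 averaged 31.7 ± 16.8 units in BIC1-YFP and 15.2 ± 7.29 units in WT and did not pass (limma, adjusted p = 0.12). The florigen gene FT (AT1G65480), which the CDF factors repress, stood at 1.00, 14.7 and 5.69 units in BIC1-YFP replicates 1, 2 and 3, against 9.03, 37.7 and 15.4 units in WT replicates 1, 2 and 3. FT was low and variable in both genotypes, and did not pass (log2 fold change -1.64, SE 0.83, limma, adjusted p = 0.098).

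GRP7 (AT2G21660), a rhythmic RNA-binding protein gene, rose to 25018 ± 2231 units in BIC1-YFP, against 17383 ± 1738 units in WT (SD, n = 3 each; log2 fold change 0.53, limma, adjusted p = 0.015). Its call was lost without BIC1-YFP replicate 2 (limma, adjusted p = 0.051). The catalase gene CAT2 (AT4G35090) fell to 15546 ± 2838 units in BIC1-YFP, against 23667 ± 666 units in WT (SD, n = 3 each; log2 fold change -0.62, limma, adjusted p = 0.015). PIF4 (AT2G43010) and PIF5 (AT3G59060) encode growth-promoting transcription factors, and the clock gates their transcripts. They rose by 3.61 and 1.21 on the log2 scale (limma, adjusted p = 0.0015 and 0.012). PIF4 was low in WT, at 6.97 ± 2.71 units, against 94.4 ± 23.8 units in BIC1-YFP (SD, n = 3 each). The size of its change depended on the units added before taking logs (3.70 with 0.5, 3.05 with 5). The authors' deposited log2 fold change of PIF4 is 2.10. PIF4 was the 1 clock-list gene still called over 21574 tests (limma, adjusted p = 0.021). Of the 14 list genes called, 8 kept the call without each of the 6 libraries in turn: LHY, PRR7, LUX, RVE7, CDF2, CAT2, PIF4 and PIF5.

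**Figure D4:**
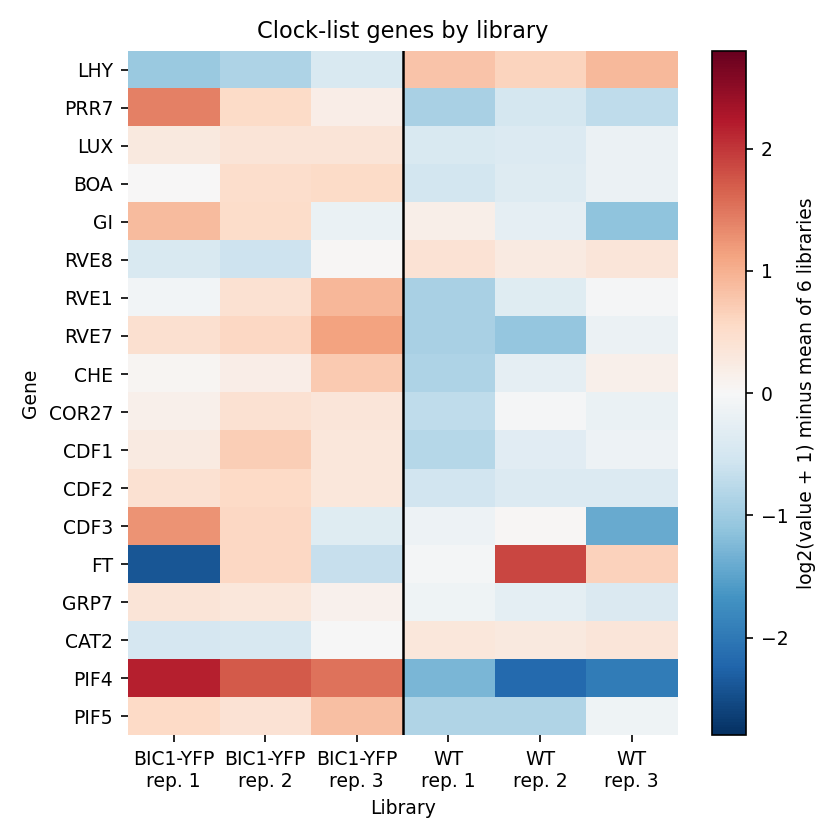
Each listed clock gene (rows) in each library (columns, BIC1-YFP left and WT right), as log2(value + 1) minus the gene's mean over the 6 libraries. LHY, RVE8 and CAT2 are low in BIC1-YFP, PRR7 and PIF4 are high there, and GI and CDF3 differ between replicates of both genotypes.

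The order of the BIC1-YFP libraries in PRR7 and in LHY was also found in other clock genes. In PRR7, GI, CDF3, GRP7 and PIF4, BIC1-YFP replicate 1 was highest and replicate 3 lowest, which are 5 of the 18 genes (27.8%), against 15.7% of the whole table. In LHY, LUX, BOA, RVE1, RVE7, CHE and CAT2, replicate 3 was highest and replicate 1 lowest, which are 7 of the 18 genes (38.9%), against 28.8% of the whole table. Several of these genes had the same order by replicate number in WT, so the order is not particular to BIC1-YFP. GI and GRP7 were highest in replicate 1 and lowest in replicate 3 in WT too. LUX, BOA, RVE1 and CHE were highest in replicate 3 and lowest in replicate 1 in WT too. LHY, PRR7, CDF3, PIF4, RVE7 and CAT2 had another order in WT. The summed signal of all listed genes was 1806408 units in BIC1-YFP replicate 1 and 2064622 units in replicate 3, and its part in the order was not tested.

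The evening element, which LHY and CCA1 bind, was searched upstream of the same genes. The 80 bases before the start of each of 5 genes are shown because every one holds the element, in capitals on either strand, in the order LUX (chr3:17182962-17183041, plus strand), BOA (chr5:24003808-24003887, plus strand), RVE7 (chr1:6308244-6308323, minus strand), COR27 (chr5:17199911-17199990, minus strand) and GRP7 (chr2:9266558-9266637, minus strand), in TAIR10.1.
LUX: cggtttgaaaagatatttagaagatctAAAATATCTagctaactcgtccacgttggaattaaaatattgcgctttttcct
BOA: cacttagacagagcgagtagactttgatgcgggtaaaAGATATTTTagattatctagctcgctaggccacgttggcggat
RVE7: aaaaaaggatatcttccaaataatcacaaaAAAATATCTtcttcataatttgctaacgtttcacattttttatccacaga
COR27: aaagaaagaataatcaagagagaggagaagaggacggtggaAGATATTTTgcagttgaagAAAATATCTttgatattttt
GRP7: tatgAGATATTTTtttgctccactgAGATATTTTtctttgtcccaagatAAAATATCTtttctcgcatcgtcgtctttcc
COR27 holds 2 copies and GRP7 holds 3 in these stretches, and the other genes hold 1 each. All 5 genes were higher in BIC1-YFP, beside 14 of all 18 clock genes (77.8%). Whether the lower level of LHY has a part in their rise was not tested. The genes shown are 5 of 18 clock genes with the element in the 300-base window, against 4.15% of the listed genes and 2.79% of all protein-coding genes. The clock lists were chosen by role and include evening genes, so their share is a description and not an enrichment found here. GI holds 3 copies between 591 and 809 bases before its start. In the table as a whole, 33 of the 63 listed genes with it in the 300-base window (52.4%) had a higher mean in BIC1-YFP, against 53.3% of all 1517 listed genes with a nuclear window. Of the 63, 18 were called higher and 24 lower, beside 575 (37.6%) and 598 (39.1%) of all 1531 tested genes.

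The G-box that LHY and PRR7 share was also in the 300-base windows of LUX, BOA, RVE1, CDF2 and PIF5, so 7 of the 18 clock genes held it. Of the 7, 6 were higher in BIC1-YFP, LHY being the exception, beside 14 of all 18 clock genes (77.8%). In the whole table, 101 of the 170 listed genes with a G-box there (59.4%) had a higher mean in BIC1-YFP, against 53.3% of all 1517. No clock gene had the CCA1-binding site in the 300-base window.

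**Figure D5:**
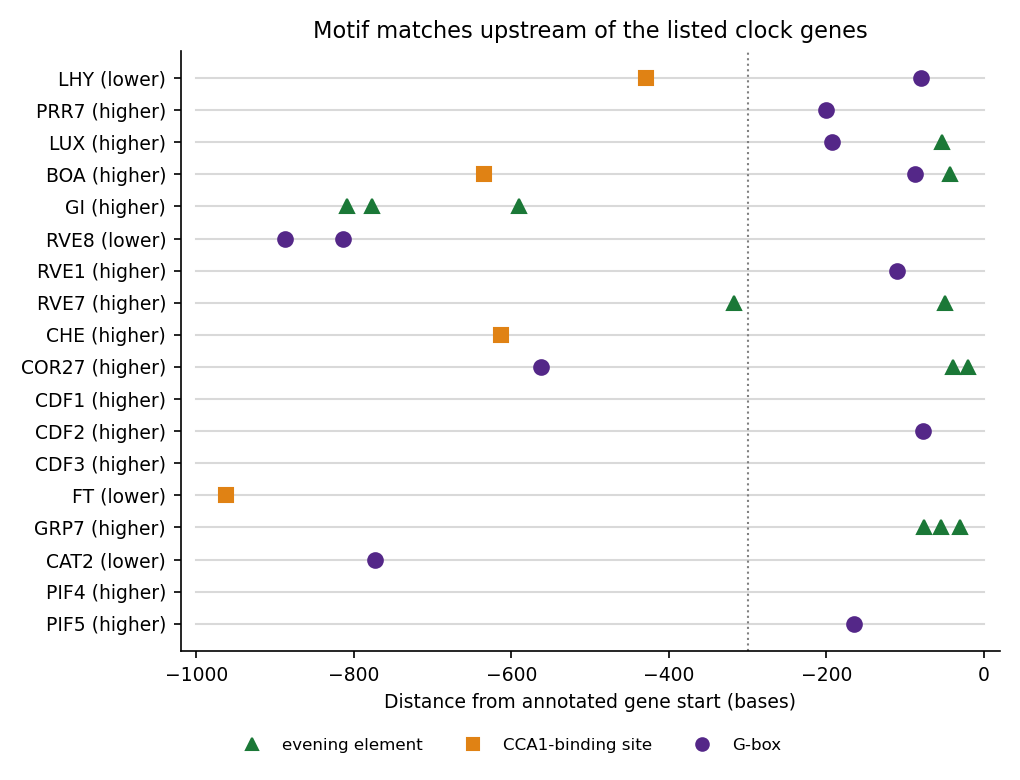
Matches to 3 motifs in the 1000 bases before the annotated start of each listed clock gene (distance in bases on the horizontal axis; the dotted line marks 300 bases), with the direction of the mean in BIC1-YFP in brackets. LHY and PRR7 each have a G-box, 80 and 201 bases before the start, and evening elements lie within 80 bases of the start in LUX, BOA, RVE7, COR27 and GRP7.

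The genes whose profile over the 6 libraries was most like that of LHY were chosen by Pearson's r on the log2(value + 1) scale among 1478 other genes. They were SQE3 (AT4G37760, a squalene epoxidase gene of sterol synthesis, r = 0.997), LHCB4.3 (AT2G40100, a photosystem II antenna gene, r = 0.995), the protein kinase gene AT5G38210 (r = 0.994) and RBCS3B (AT5G38410, a small subunit gene of Rubisco, r = 0.993). SQE3 averaged 445 ± 88.1 units in BIC1-YFP and 1038 ± 48.7 units in WT (SD, n = 3 each). The most opposite were AT1G12080 (r = -0.991) and the antenna gene LHCB6 (AT1G15820, r = -0.989). Of the genes compared, 28.0% had an r beyond 0.9 in size with LHY.

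The genes most like PRR7 were AT5G64180 (r = 0.971), the zinc finger gene JKD (AT5G03150, r = 0.968), the glycine-rich protein gene AT5G61660 (r = 0.967) and the flavonoid glucosyltransferase gene UGT73B2 (AT4G34135, r = 0.967). Their log2 fold changes lay between 0.57 and 0.77, smaller than that of PRR7, although their order over the libraries was close to it. The most opposite were the hydrolase genes AT1G74640 (r = -0.984) and AT1G30080 (r = -0.980), both lower in BIC1-YFP. An r beyond 0.9 in size with PRR7 was found for 9.34% of the genes compared. None of these 12 genes is in the clock lists, and they were picked for their likeness over 6 libraries that share scaling.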

How the data were processed

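Per the labels' protocols, RNA of 10-day-old seedlings was extracted with Trizol and sequenced on the Illumina HiSeq platform. The submitters' processing notes name TAIR10 and Cufflinks without versions, and no source used here gives the aligner, counter, scaling or test. The authors deposited, per gene and library, a signal with decimals, treated here as normalized read abundance, and a mean signal per genotype; its unit is not stated. Values below 10 were whole (to 0.05) for 100% of genes in replicate 1 of each genotype but for 4.85% to 21.1% in the other 4 libraries, so no count test was used. Each gene also has the authors' log2 fold change and their p-value, raw and adjusted. Only genes that the authors selected are listed, so a gene outside the table is not shown to be unchanged.

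Genes with at least 1 unit in 3 or more libraries (1531 of 1537) were put on the scale log2(value + 1), which understates the change of low genes, and BIC1-YFP was compared with WT in limma 3.58.1 (R 4.3.3), with a variance trend and no covariate. P-values were adjusted over all tested genes (Benjamini-Hochberg), and those under 0.05 were called. The adjustment over selected genes is lenient. The script was tested on simulated data.

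LHY, PRR7 and the clock lists were chosen with earlier results of these data known. The genes named are LHY, PRR7, the clock-list genes in the table, BIC1, and the 4 genes most like and 2 most unlike each of LHY and PRR7 with a mean of at least 10 units in the higher genotype. The design had a permutation test for the ratio of PRR7 to LHY; it is not given, because both genes were chosen with their values known, and 3 against 3 libraries cannot give a p under 0.1. Upstream sequence is RefSeq TAIR10.1, used for sequence and annotation; the deposited table holds no coordinates. The 1000-base windows, added after seeing the data, can reach into neighbouring genes. Whether replicates came from separate plates or plants is not stated, so the p-values measure the spread between these libraries.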

Additional observations from a re-analysis of the deposited data

How the results depend on the processing

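The calls of LHY (log2 fold change -1.57) and PRR7 (1.41) were lost over 21574 tests, which change no fold change, and held in the other 14 alternatives, with log2 fold changes of -1.74 to -1.44 for LHY and 1.06 to 1.68 for PRR7. Over 21574 tests, 50 genes were called (25 higher, 25 lower), with 1 clock-list gene higher and 0 lower; at the main adjustment these were 1173 (575 and 598), and 11 and 3. Leaving out 1 library gave 441 to 1219 calls over the table (193 to 621 higher, 248 to 598 lower) and 8 to 15 in the clock lists (6 to 12 higher, 2 to 3 lower). The table held 441 calls without BIC1-YFP replicate 2, 710 without BIC1-YFP replicate 3, 615 without WT replicate 1 and 607 without WT replicate 2; the cause of the difference between these libraries was not tested. The log2 difference in the ratio of PRR7 to LHY lay between 2.49 and 3.42 in all alternatives run for it. Scaling by median ratios moved log2 fold changes by -0.08 in the median. No named gene changed direction in any alternative.

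Replicate numbers are shared between the genotypes, and the main fit did not use them to pair the libraries. The correlation across genes of the deviations from the genotype means was 0.46, 0.057 and 0.48 for replicates 1, 2 and 3. It was -0.47 for BIC1-YFP replicate 3 with WT replicate 1, and -0.44 for BIC1-YFP replicate 1 with WT replicate 3. The deviations within a genotype cancel out over its libraries, so these coefficients are tied to each other and are not separate observations. BIC1-YFP replicate 2 lay between -0.15 and 0.10 with every WT library and so says little about pairing. Replicates 1 and 3 thus varied alike by number in the 2 genotypes, and whether a shared batch lies behind this was not tested. With the replicate block, the log2 fold changes of LHY (-1.57) and PRR7 (1.41) were the same. Of the 1531 genes tested, 1445 were called with it (751 higher, 694 lower), so nearly the whole table passed. All 18 clock-list genes passed too, 14 higher and 4 lower. They include GI, CHE, CDF3 and FT, which did not pass in the main fit (limma with the block, adjusted p = 0.0065, 0.0053, 0.022 and 0.011).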
